A study of Homo sapiens with 14 samples.

Results

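Transcripts of the cytosolic nucleic acid sensing pathway were examined through 8 genes: *MB21D1* (the older symbol of *CGAS*, encoding cGAS), *TMEM173* (the older symbol of *STING1*, encoding STING), *TREX1*, *TBK1*, *IRF3*, *IFNB1*, *MAVS* and *SAMHD1*. They were taken by gene symbol, and all 8 were found among the 26732 gene symbols shared by the tables of both cell lines. A549 and H1792 are established human lung adenocarcinoma (LUAD) cell lines, grown in DMEM and in RPMI 1640 respectively. In each line, cells given 0.1 µM AMG900, an inhibitor of the aurora kinases, for 48 h were compared with cells given the vehicle DMSO, with 4 AMG900 and 4 DMSO libraries of A549 and 3 AMG900 and 3 DMSO libraries of H1792. The labels name no gene deletion and no transgene, and within each line the labelled groups differ by agent only. Line, culture medium, count table and library preparation cannot be told apart in any comparison between the lines, and each line is a single tumour-derived model. Nothing in the labels ties a library to a culture passaged apart from the others, so the spread behind each test may be no more than that between dishes.

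cGAS binds DNA in the cytosol and makes a cyclic dinucleotide that activates STING on the endoplasmic reticulum. STING then recruits the kinase TBK1, which phosphorylates the transcription factor IRF3, and IRF3 in the nucleus helps to switch on *IFNB1* (interferon beta) and a set of interferon-stimulated genes. MAVS is the mitochondrial adaptor that carries the parallel signal from RNA sensors to the same kinase, whereas TREX1, a DNA exonuclease, and SAMHD1, a deoxynucleotide triphosphohydrolase, hold the pathway back by removing nucleic acids or their building blocks. In cancer cells with mitotic errors this pathway is known for its response to DNA in micronuclei.

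Promoter stretches are shown first for the pathway's interferon and for a pair of its downstream genes whose transcripts are described below. The genes were picked by hand, and other downstream genes are not shown. The stretches were searched for letters that IRF proteins are known to read, and binding was not tested. Each line gives 120 bases up to the transcription start site, 5′ to 3′ on the gene's own strand, with matches to the core letters AANNGAAA in capitals. *IFNB1* lies at chr9:21077943-21078062 on the minus strand, *IRF9* at chr14:24161145-24161264 on the plus strand and *ISG15* at chr1:1013377-1013496 on the plus strand (RefSeq, GRCh38.p14).
IFNB1: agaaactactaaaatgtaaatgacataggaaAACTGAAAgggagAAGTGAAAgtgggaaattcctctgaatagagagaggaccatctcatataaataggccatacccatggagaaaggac
IRF9: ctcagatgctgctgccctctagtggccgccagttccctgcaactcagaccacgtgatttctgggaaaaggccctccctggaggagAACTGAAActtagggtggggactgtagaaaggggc
ISG15: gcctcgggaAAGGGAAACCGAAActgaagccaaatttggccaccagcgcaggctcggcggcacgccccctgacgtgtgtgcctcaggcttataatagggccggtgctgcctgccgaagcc
The *IFNB1* stretch holds 2 core matches, which begin 89 and 76 bases before the start. In *IRF9* a single match begins 35 bases before the start, and in *ISG15* 2 overlapping matches begin 111 and 105 bases before it. Of all 35116 promoter windows in the RefSeq table, 22.8% held the core on either strand, a share that was read only after the *IFNB1* promoter had been seen, so these matches are a description. The windows are longer than the 120 bases printed, so this share is not one for stretches of the printed length. Shares of all windows and the searches of the members used the whole windows. Among the 5 members with a promoter in the table (*TREX1*, *TBK1*, *IFNB1*, *MAVS* and *SAMHD1*), *IFNB1* alone held the core, and none held the longer IRF element GAAANNGAA, which 8.11% of all windows held on either strand. Of the printed stretches, that of *ISG15* held 3 matches to the longer element and those of *IFNB1* and *IRF9* held 0. *MAVS* held the GC box GGGCGG, as did 45% of all windows, and none of the 5 held TGACGTCA (1.85% of windows), TTTCGCGC (0.515%) or TTTGGCGC (0.652%), each searched on both strands.

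Total counts per library ran from 4254644 to 18962883 in A549 and from 42810734 to 79984064 in H1792, and A549 DMSO replicate 1 was the smallest library. Values below are CPM, a gene's reads per 1000000 reads of the library, scaled by TMM over all 14 libraries, and a gene was called when edgeR's quasi-likelihood test gave a false discovery rate (FDR) below 0.01 over all genes tested. Fold changes come from fits within a comparison, so in A549 they lie slightly below the ratio of the printed CPM. Of the epithelial markers (*EPCAM*, *KRT8*, *KRT18*, *KRT19* and *CDH1*), 4 of 5 had a mean above 1 CPM in every group, but not the same 4 in both lines. *EPCAM* was the low marker in A549 (means of 0.29 CPM with DMSO and 0.34 CPM with AMG900). *CDH1* was the low marker in H1792 (0.70 and 0.93 CPM). The 5 lung lineage markers summed to at most 2.06 CPM in any library, and *SFTA3* was at 0 in all A549 libraries. In a bulk library, fewer cells with a transcript and less of it per cell cannot be told apart.

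AMG900 raised 1 of the 7 members tested in A549 and 1 in H1792. *IRF3*, the transcription factor, rose in A549 by 1.35-fold, and *TMEM173*, the adaptor STING, rose in H1792 by 1.25-fold. No member was called lower in either line by edgeR; at an unadjusted p below 0.05, 1 member was lower in A549 and 2 in H1792, and DESeq2 called 0 lower in each. Over all genes tested, 35% were called in A549 (17.2% higher, 17.8% lower) and 35.1% in H1792 (16.2% higher, 18.8% lower), so the members' share of 14.3% in each line lies below that of all genes. *IFNB1* had too few counts to be tested.

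**Figure D1:**
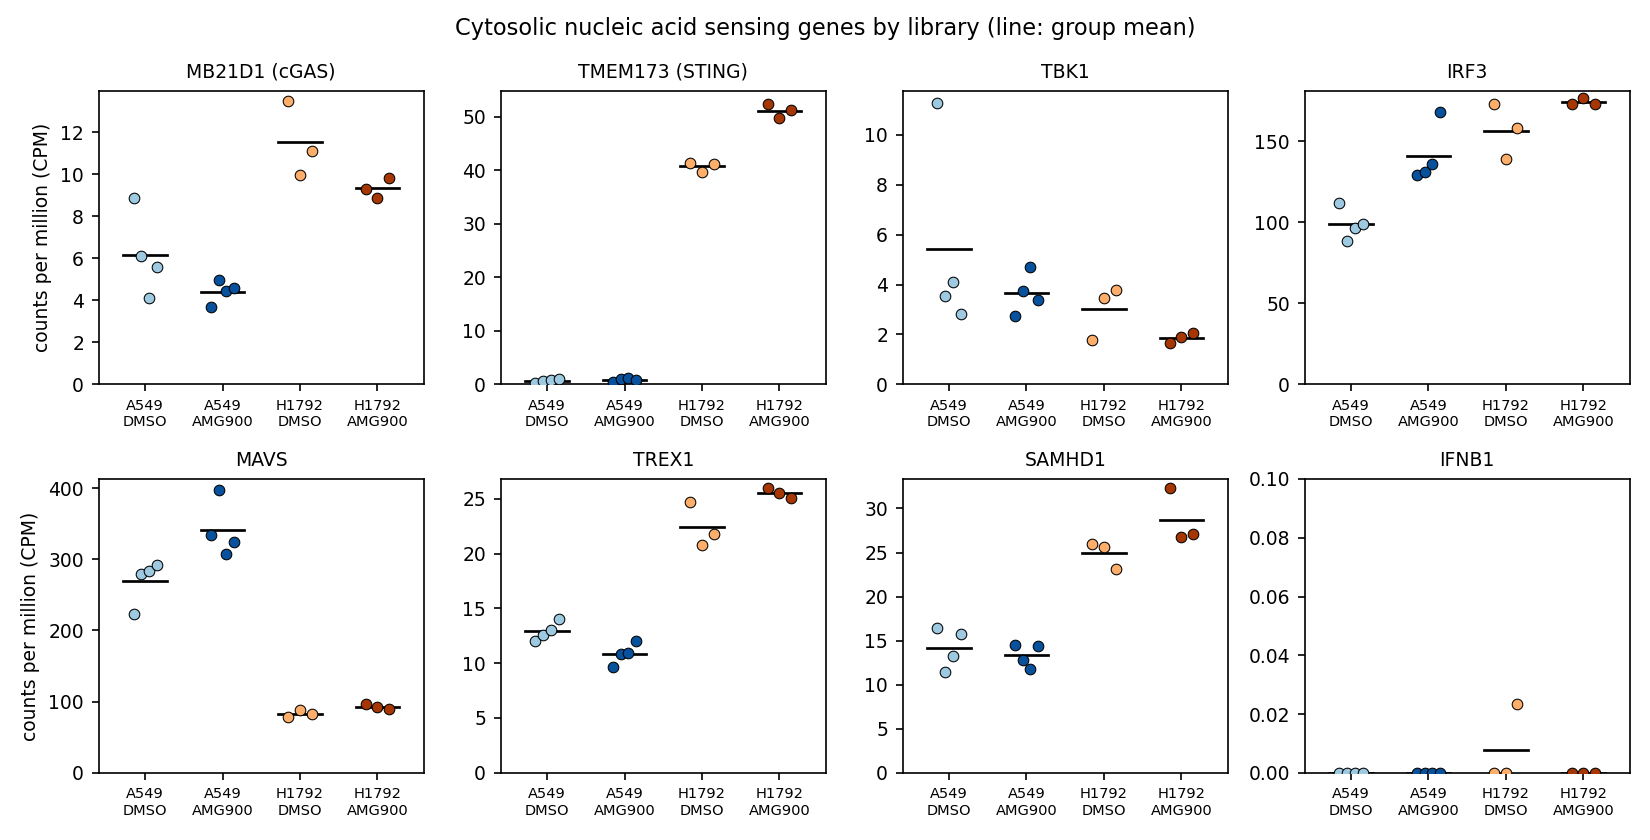
CPM of each member (linear axes from 0, 1 panel per gene) in every library, with a point for each library and a line for the group mean. *TMEM173* sits between 0.222 and 1.14 CPM in A549 and between 39.6 and 52.3 CPM in H1792, and *IFNB1* is at 0 in all libraries but 1.

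*MB21D1* (chr6:74123238-74162020, minus strand, GRCh37) encodes the DNA sensor. In A549 its level was 3.67, 4.96, 4.44 and 4.58 CPM with AMG900, against 8.86, 6.11, 4.11 and 5.59 CPM with DMSO. DMSO replicate 1 was the highest of these libraries and DMSO replicate 3 lay within the AMG900 range, so the groups overlapped. The change missed the threshold (log2 fold change -0.50, SE 0.23, 95% interval -0.997 to 0.00399, edgeR adjusted p = 0.0927). In H1792 the libraries read 9.29, 8.85 and 9.84 CPM with AMG900 and 13.5, 9.98 and 11.1 CPM with DMSO. Every AMG900 library lay below every DMSO library, by a narrow margin at the closest pair, and the change again missed the threshold (log2 fold change -0.31, SE 0.12, edgeR adjusted p = 0.0451). It was called lower in H1792 when DMSO replicate 2 was left out (log2 fold change -0.42, edgeR adjusted p = 0.00907). That was the only call among the 6 H1792 fits that left out 1 library. One fit over all 14 libraries gave -0.31 in H1792 (edgeR adjusted p = 0.163). With a correction for the GC content of the transcripts the changes were -0.15 in H1792 and -0.27 in A549 (edgeR adjusted p = 0.365 and 0.366).

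*TMEM173* (chr5:138855118-138862520, minus strand) encodes STING. In H1792 it stood at 52.3, 49.7 and 51.2 CPM with AMG900 and at 41.4, 39.6 and 41.2 CPM with DMSO. All treated libraries were above all DMSO libraries, and the rise was called (log2 fold change 0.32, SE 0.058, 95% interval 0.20 to 0.45, edgeR adjusted p = 0.00103). The call held with any 1 of the 6 libraries left out. It ended in 1 fit over all 14 libraries, where the spread is shared with A549 (0.33, edgeR adjusted p = 0.0305), and with a correction for the GC content of the transcripts (0.056, edgeR adjusted p = 0.394). In A549 the transcript was near the limit of detection, with 1 to 21 reads per library: 0.471, 1.06, 1.14 and 0.796 CPM with AMG900 and 0.222, 0.602, 0.792 and 0.921 CPM with DMSO. These groups overlapped, and at this depth the interval of the log2 fold change ran from -0.68 to 1.18 (estimate 0.25, edgeR adjusted p = 0.659), which includes the size of the change seen in H1792.

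*TBK1* (chr12:64845870-64895894, plus strand), the kinase that STING and MAVS share, was lowly expressed in every group. A549 libraries had 2.73, 3.76, 4.71 and 3.38 CPM with AMG900 and 11.3, 3.53, 4.11 and 2.82 CPM with DMSO. DMSO replicate 1, the smallest library, was far above the others, and the remaining DMSO libraries lay inside the AMG900 range. The log2 fold change of -0.49 (SE 0.37, edgeR adjusted p = 0.296) became 0.015 without that library (edgeR adjusted p = 0.963). H1792 libraries had 1.67, 1.90 and 2.04 CPM with AMG900 and 1.77, 3.46 and 3.78 CPM with DMSO. Here DMSO replicate 1 was the low library and overlapped the treated ones (log2 fold change -0.67, SE 0.26, edgeR adjusted p = 0.0525), and without it *TBK1* was called lower (-0.98, edgeR adjusted p = 0.000273). That was the only call among the 6 H1792 fits that left out 1 library. The GC correction gave -0.12 in H1792 (edgeR adjusted p = 0.685) and 0.073 in A549 (edgeR adjusted p = 0.882).

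*IRF3* (chr19:50162826-50169132, minus strand), the transcription factor that TBK1 phosphorylates, was at 129, 131, 136 and 168 CPM in A549 with AMG900 and at 112, 88.4, 96.7 and 99.0 CPM with DMSO. The groups did not overlap, and replicate 4 was the highest treated library. The rise was called (log2 fold change 0.44, SE 0.095, 95% interval 0.23 to 0.64, edgeR adjusted p = 0.00169) and was called in each of the 8 fits that left out 1 library. With the GC correction it was 0.025 (edgeR adjusted p = 0.79), so the call ended. Its transcripts have a mean GC content of 61%, and 19.3% of its exon bases lie across from exons of *BCL2L12* on the other strand, whose counts changed the other way in A549 (log2 fold change -0.98, edgeR adjusted p = 3e-06). Whether the counting used strand is not given in the sources used here, so how reads in that overlap were assigned is uncertain. In H1792 *IRF3* was at 173, 177 and 173 CPM with AMG900 and at 173, 139 and 158 CPM with DMSO, with DMSO replicate 1 as high as the treated libraries (log2 fold change 0.15, SE 0.073, edgeR adjusted p = 0.109). Leaving out that library gave 0.21 and a call (edgeR adjusted p = 0.0035), whereas the GC correction turned the direction (-0.18, edgeR adjusted p = 0.00539).

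*MAVS* (chr20:3827446-3856770, plus strand), the adaptor of the RNA sensors, was at 334, 397, 308 and 325 CPM in A549 with AMG900 and at 223, 279, 283 and 292 CPM with DMSO. In H1792 it was at 96.0, 93.1 and 90.1 CPM with AMG900 and at 78.6, 87.6 and 82.4 CPM with DMSO. The treated libraries lay above the DMSO libraries in both lines without overlap, yet the change passed the threshold in neither (A549 log2 fold change 0.26, SE 0.093, edgeR adjusted p = 0.0322; H1792 0.17, SE 0.060, edgeR adjusted p = 0.0398). The fit over all libraries called it in A549 (0.33, edgeR adjusted p = 0.00289) but not in H1792 (0.17, edgeR adjusted p = 0.18). With the GC correction it was 0.19 in A549 and 0.069 in H1792, not called in either (edgeR adjusted p = 0.061 and 0.303). Scaling by total counts gave 0.18 and 0.099, also without a call (edgeR adjusted p = 0.138 and 0.225). Leaving out each library in turn gave 0 calls in 8 A549 fits and 0 in 6 H1792 fits.

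*TREX1* (chr3:48507210-48509044, plus strand) encodes the exonuclease that degrades cytosolic DNA. A549 libraries had 9.69, 10.8, 10.9 and 12.0 CPM with AMG900 and 12.0, 12.6, 13.0 and 14 CPM with DMSO. H1792 libraries had 26, 25.5 and 25.1 CPM with AMG900 and 24.7, 20.8 and 21.8 CPM with DMSO. The treated libraries were at the low end in A549, touching the DMSO range at 1 library, and at the high end in H1792 without overlap. Neither difference was called (A549 log2 fold change -0.33, SE 0.13, edgeR adjusted p = 0.0449; H1792 0.18, SE 0.079, edgeR adjusted p = 0.0771). Without H1792 DMSO replicate 1 the H1792 value was 0.24 and called (edgeR adjusted p = 0.00938), and with the GC correction the A549 value was -0.77 and called (edgeR adjusted p = 0.000145) while the H1792 value turned to -0.15 (edgeR adjusted p = 0.0441). All annotated *TREX1* exon bases (100%) also lie in exons of *ATRIP* on the same strand, so the split of reads between both genes is uncertain; *ATRIP* had log2 fold changes of -0.25 in A549 and -0.10 in H1792, neither called.

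*SAMHD1* (chr20:35518632-35580296, minus strand), which limits the supply of deoxynucleotides, read 14.5, 12.8, 11.8 and 14.4 CPM in A549 with AMG900 and 16.4, 11.4, 13.2 and 15.7 CPM with DMSO, with overlapping groups (log2 fold change -0.15, SE 0.14, edgeR adjusted p = 0.413). In H1792 the values were 32.3, 26.8 and 27.1 CPM with AMG900 and 26, 25.6 and 23.1 CPM with DMSO. The H1792 groups did not overlap, and AMG900 replicate 1 stood highest, but the change was not called (0.20, SE 0.090, edgeR adjusted p = 0.0813). With the GC correction it was (0.46, edgeR adjusted p = 0.00221); the transcripts of *SAMHD1* have a mean GC content of 43.6%.

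*IFNB1* (chr9:21077103-21077941, minus strand, GRCh37) had 0 reads in all 8 A549 libraries and in 5 of the 6 H1792 libraries, and 1 read in H1792 DMSO replicate 3 (0.0233 CPM). A count of 0 among 104570796 reads of A549 allows a level of up to 0.0287 CPM, from 3 counts, a limit that covers counting error only. No AMG900 library of either line had a read of *IFNB1*, so the transcript was not detectable there at this depth. The two-sided exact permutation test over the H1792 libraries gave p = 1, and 3 libraries against 3 cannot give less than 0.1.

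Genes with GC-richer transcripts tended to have higher log2 fold changes with AMG900 (Spearman's rho across genes, which are not independent of each other, 0.494 for A549 and 0.467 for H1792, from 97.1% and 95.7% of the genes tested). The members run from 38.4% GC in *TBK1* to 62% in *TREX1*, and both member calls are of genes on the GC-rich side (*IRF3* at 61%, *TMEM173* at 57.7%). The part of GC content in these results was not tested beyond the correction given above.

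**Figure D2:**
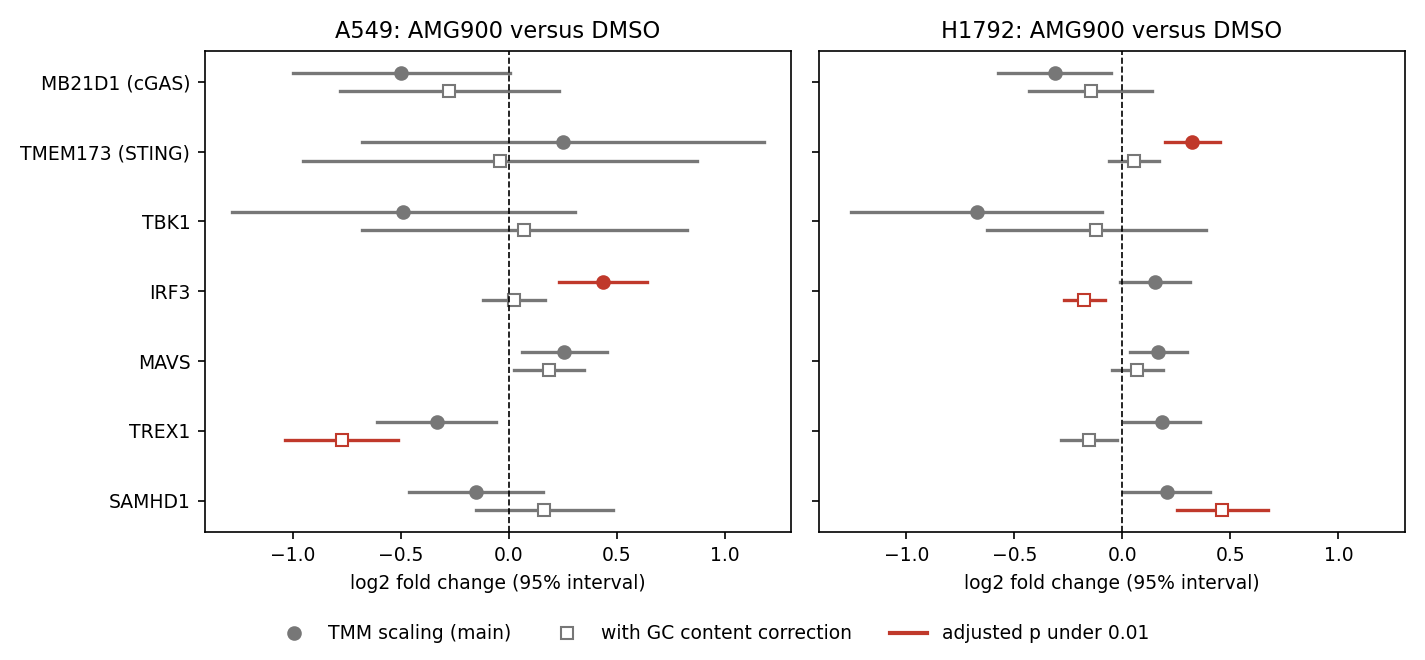
Log2 fold change of each tested member with AMG900 against DMSO in A549 and in H1792, as estimates with 95% intervals, with the GC correction as open squares and without it as filled circles, in red where the adjusted p is under 0.01. *IRF3* in A549 moves from 0.44 to 0.025 and *TMEM173* in H1792 from 0.32 to 0.056.

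The response of each member was compared between the lines by the interaction of line and treatment. None of the 7 members was called by edgeR, while 14.5% of all genes were; at an unadjusted p below 0.05, *TREX1* was relatively higher and *IRF3* relatively lower in H1792, and DESeq2 called 1 member. For *TREX1* the log2 difference of the responses was 0.44 (95% interval 0.13 to 0.76, edgeR adjusted p = 0.0358), and it was called by DESeq2 (0.52, adjusted p = 0.00265) and with the GC correction (0.57, edgeR adjusted p = 0.00205). For *IRF3* it was -0.36 (edgeR adjusted p = 0.0583). *TMEM173* had an interval from -0.68 to 0.73, too wide to tell whether its response differed, and the median of all genes was -0.10.

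In DMSO most of the members differed between the lines. Of the 7 members tested in DMSO, 5 were called higher in H1792 and 1 lower, where 62.2% of all genes were called (30.9% higher, 31.2% lower). *TMEM173* had the widest gap: 0.634 ± 0.305 CPM (SD, n = 4) in A549 and 40.7 ± 0.960 CPM (SD, n = 3) in H1792, a 53.7-fold difference (log2 5.75, SE 0.19, 95% interval 5.33 to 6.16, edgeR adjusted p = 3.35e-10). *MB21D1* was 1.91-fold higher in H1792 (log2 0.93, SE 0.22, edgeR adjusted p = 0.00274), a call that was lost without H1792 DMSO replicate 1 (0.80, edgeR adjusted p = 0.0167). The A549 and H1792 libraries of both genes did not overlap, so the sensor and the adaptor were each higher in H1792.

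The inhibitory enzymes were higher in H1792 too, *TREX1* by 0.73 (SE 0.12, edgeR adjusted p = 0.000175) and *SAMHD1* by 0.78 (SE 0.14, edgeR adjusted p = 0.000298) on the log2 scale, and *IRF3* by 0.62 (SE 0.10, edgeR adjusted p = 0.000205). *ATRIP*, which shares the exons of *TREX1*, was likewise higher (0.75, edgeR adjusted p = 0.000117). *MAVS* went the other way, at 269 ± 31.4 CPM (SD, n = 4) in A549 and 82.9 ± 4.48 CPM (SD, n = 3) in H1792, which is 3.38-fold lower in H1792 (log2 -1.76, SE 0.098, edgeR adjusted p = 2.49e-08). *TBK1* overlapped between the lines and was not called (-0.75, SE 0.44, edgeR adjusted p = 0.141). These comparisons use the same DMSO libraries as the treatment comparisons above.

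**Figure D3:**
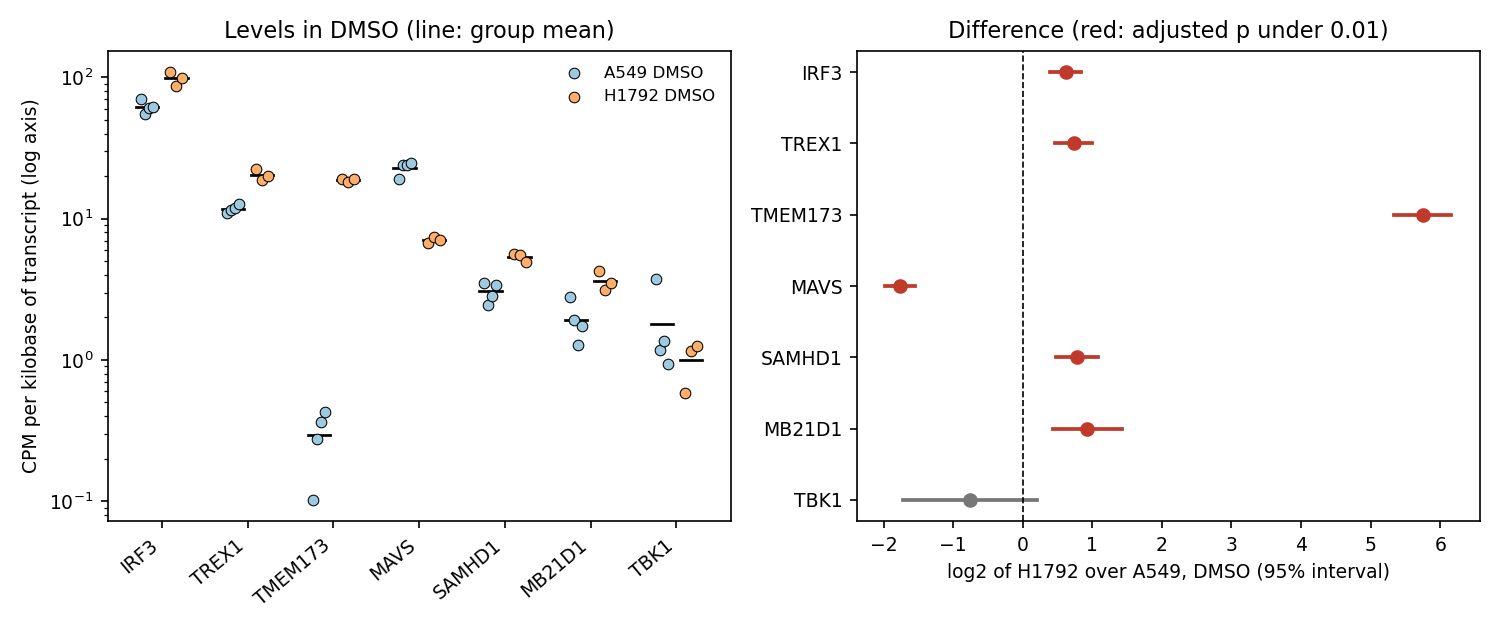
Left, CPM per kilobase of the canonical transcript (log axis) of the 7 tested members in DMSO, with a point for each library and a line for the mean; right, the log2 difference H1792 over A549 with its 95% interval, in red where the adjusted p is under 0.01. *IRF3* is highest in both lines, at means of 62.1 and 98.3, and *TMEM173* lies between 0.102 and 0.425 in A549 and between 18.3 and 19.1 in H1792.

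Ordered by CPM per kilobase of the Ensembl canonical transcript, the DMSO libraries of A549 had mean levels of 62.1 for *IRF3*, 23.0 for *MAVS*, 11.8 for *TREX1*, 3.05 for *SAMHD1*, 1.93 for *MB21D1*, 1.8 for *TBK1*, 0.292 for *TMEM173* and 0 for *IFNB1*. *SAMHD1* overlapped *MB21D1*, and *MB21D1* overlapped *TBK1*, so the order within those 3 genes is not settled by the libraries. In H1792 DMSO the means were 98.3 for *IRF3*, 20.4 for *TREX1*, 18.8 for *TMEM173*, 7.06 for *MAVS*, 5.36 for *SAMHD1*, 3.61 for *MB21D1* and 0.994 for *TBK1*, and of these neighbours *TREX1* and *TMEM173* overlapped. STING thus moved from the last detected place in A549 to the level of *TREX1* in H1792, and *MAVS* from the second place to the fourth. With AMG900, *TMEM173* averaged 0.400 per kilobase in A549, still the lowest of the detected members, and 23.5 in H1792, where it again overlapped *TREX1* (23.3).

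Markers of other cell types also differed between the lines, and their part in the differences between lines or with AMG900 was not tested. The 4 fibroblast markers (*COL1A1*, *COL3A1*, *PDGFRB* and *LUM*) summed to 82.3 to 113 CPM in A549 DMSO, with 1 of 4 above a mean of 1 CPM, and to 2251 to 2906 CPM in H1792 DMSO, with 4 of 4 above it. The epithelial list summed to 4226 to 5329 CPM in A549 DMSO and 674 to 840 CPM in H1792 DMSO. Leukocyte markers, from cells known for high levels of these sensors, summed to 60 to 86.9 CPM in A549 DMSO and 101 to 117 CPM in H1792 DMSO, with 2 of 6 above 1 CPM in each and *PTPRC* and *CD3E* at 0 in A549 DMSO. With AMG900 the leukocyte sum was 163 to 179 CPM in A549 and 173 to 199 CPM in H1792, and the fibroblast sum 39.0 to 49.1 and 1655 to 1694 CPM. The endothelial list stayed between 0.216 and 5.59 CPM in A549 DMSO and between 4.01 and 16.5 CPM in H1792 DMSO.

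Over the 14 libraries, the genes whose log2 CPM most resembled that of *MB21D1* among 10855 well-counted genes were *FDX1* (Pearson's r 0.989), *AKIRIN2* (0.970) and *ARPC5L* (0.968). For *TMEM173* they were *WWC3* (0.996), *SLC43A1* (0.995) and *GFPT2* (0.995). The libraries fall into 2 clusters by line, which differ in depth as well, so these values describe mostly a shared difference between the lines.

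Genes around the members were read from 6 lists with 96 names: other DNA sensors and STING regulators, RNA sensors, kinase adaptors and transcription factors, other nucleases and editors, interferons with their receptors, and downstream readouts. With AMG900, 25 of the 77 tested were called higher and 7 lower in A549, and 21 of 82 higher and 14 lower in H1792. The shares called, 41.6% and 42.7%, compare with 35% and 35.1% of all genes, and the balance was towards higher in A549. Because the lists were chosen with earlier results of these data known, the shares and their balance are a description of the chosen genes. By list, DNA sensors and STING regulators had 36.8% called in A549 and 55% in H1792, and RNA sensors 20% and 8.33%. Kinase adaptors and transcription factors had 47.1% and 55.6%, and other nucleases 36.4% in each line. Receptor signalling had 50% and 36.4%, and readouts 60% and 50%. Several of these shares thus lay close to that of all genes, and those of RNA sensors lay below it.

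Among DNA sensors and STING regulators, 4 of 19 tested were higher and 3 lower in A549, and 4 of 20 higher and 7 lower in H1792. *RHBDF2* (iRhom2, which assists STING's trafficking) rose in both lines (log2 fold change 1.25 in A549 and 0.38 in H1792), although with the GC correction the H1792 value was 0.044 and not called. *IFI16*, a nuclear DNA sensor, rose in A549 (0.56, edgeR adjusted p = 0.00131) and had 0.34 in H1792 (edgeR adjusted p = 0.0243). With the GC correction *IFI16* was called in both, at 1.00 in A549 and 0.75 in H1792 (edgeR adjusted p = 2.54e-06 and 2.72e-05). The falls included *LRRC8C* (-1.51 and -0.90), a subunit of the channel that passes cyclic dinucleotides, *G3BP1* (-0.77 and -0.63), which aids DNA binding by cGAS, and *TMED2* (-0.46 and -0.93), a cargo receptor that aids STING, each called in both lines, with *TMED2* in A549 no longer called under the GC correction (edgeR adjusted p = 0.0103). *BANF1*, which competes with cGAS for DNA, rose in H1792 (0.32, edgeR adjusted p = 0.000826), at 0.13 and not called with the GC correction. The median of the list was 0.01 in A549 and -0.15 in H1792, against -0.01 and 0.01 over all genes.

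Kinase adaptors and transcription factors were called higher in 7 of 17 and lower in 1 in A549, and in 7 of 18 and 3 in H1792. *IRF7*, the interferon-inducible relative of *IRF3*, was at 12.3, 13.0, 17.4 and 18.5 CPM in A549 with AMG900 and at 4.65, 2.75, 3.10 and 2.99 CPM with DMSO. In H1792 it was at 17.3, 17.5 and 16.7 CPM with AMG900 and at 10.8, 9.38 and 9.31 CPM with DMSO. The treated libraries were above the DMSO libraries in both lines, and the log2 fold changes of 2.19 and 0.80 (edgeR adjusted p = 7.29e-07 and 5.29e-05) remained called with the GC correction, at 1.67 and 0.44. *TBKBP1*, an adaptor of TBK1, rose (1.01 and 0.42, the latter lost with the GC correction), whereas *TRAF6* fell in A549 (-0.71, edgeR adjusted p = 0.00391, lost with the GC correction at -0.44, the replicate block and several libraries left out) and *NFKB1* fell in H1792 (-0.53, edgeR adjusted p = 4.2e-05).

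Few RNA sensors were called: 1 of 10 tested was called higher and 1 lower in A549, and 1 of 12 higher and 0 lower in H1792, where edgeR had 1 lower at an unadjusted p below 0.05 and DESeq2 called 0. In A549 *OAS1* rose (1.06, edgeR adjusted p = 1.19e-05) and *OAS3* fell (-0.91, edgeR adjusted p = 3.93e-07), both oligoadenylate synthetases. The gene called in H1792 was *TICAM1*, an adaptor of TLR3 (0.42, edgeR adjusted p = 0.000928), with 0.075 and no call under the GC correction. Other nucleases had 3 of 11 higher and 1 lower in each line: *PLD3*, a lysosomal exonuclease, rose in both (0.94 and 0.38, the latter lost with the GC correction), and *RNASEH2A*, the catalytic subunit of RNase H2, fell in A549 (-1.86, edgeR adjusted p = 1.16e-08) with -0.09 in H1792 (edgeR adjusted p = 0.403), where the GC correction gave -0.36 and a call (edgeR adjusted p = 0.00069).

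**Figure D4:**
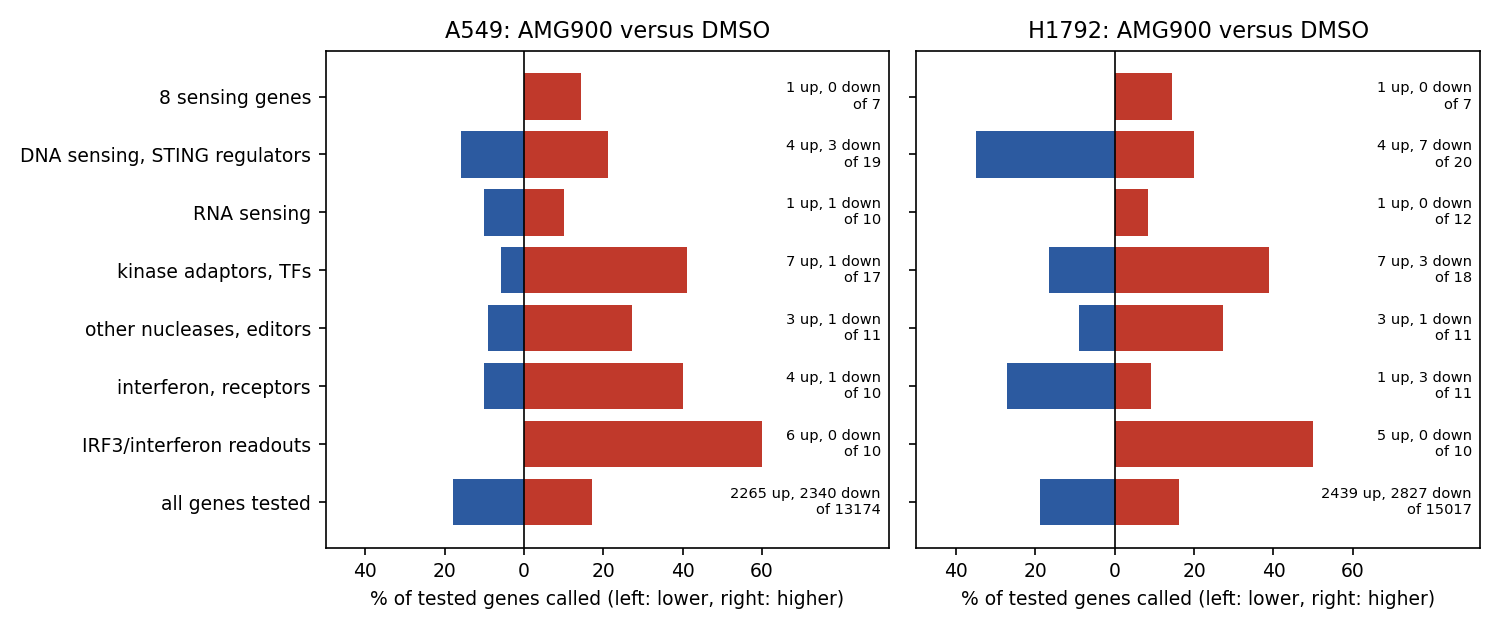
Percentage of the tested genes of the members and of each pathway list called lower (blue, to the left) or higher (red, to the right) with AMG900 in A549 and H1792, with that over all genes as the lowest bar. The readout list has 6 of 10 higher in A549 and 5 of 10 in H1792, with 0 lower in each.

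Among the downstream readouts, edgeR made calls in the higher direction with AMG900 and none in the lower. In A549, 6 of 10 tested were called higher (*IFIT3*, *ISG15*, *CCL5*, *OASL*, *MX1* and *IFI6*) and 0 lower, and in H1792, 5 of 10 were higher (*ISG20*, *CCL5*, *OASL*, *MX1* and *IFI6*) and 0 lower by edgeR. At an unadjusted p below 0.05, 0 were lower in A549 and 1 in H1792, and DESeq2 called 0 and 1 lower. *CXCL10* and *RSAD2*, which are well-known targets of IRF3, had too few counts to be tested in either line. The list had a median log2 fold change of 0.93 in A549 and 0.38 in H1792, against -0.01 and 0.01 over all genes. With the GC correction the counts were 8 higher in A549 and 5 in H1792, with 0 lower in each, but the genes behind the H1792 count changed, since *MX1* lost its call there (0.24, edgeR adjusted p = 0.0141).

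*CCL5*, a chemokine, had the largest change of the tested readouts in both lines. In H1792 it was at 16.5, 15.8 and 15.1 CPM with AMG900 and at 2.68, 3.65 and 2.89 CPM with DMSO, without overlap (log2 fold change 2.37, edgeR adjusted p = 1.03e-06), and in A549 the log2 fold change was 4.05. *OASL*, an antiviral protein, was at 6.31, 8.58, 7.04 and 9.35 CPM in A549 with AMG900 and at 1.77, 0.688, 1.8 and 1.96 CPM with DMSO. Its H1792 libraries had 1.48, 1.88 and 1.6 CPM with AMG900 and 0.596, 0.797 and 0.373 CPM with DMSO. Neither line showed overlap for *OASL* (log2 fold change 2.25 and 1.47, edgeR adjusted p = 1.19e-05 and 0.00172).

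*ISG15*, whose promoter is printed above, was at 33.0, 35.0, 33.9 and 38.9 CPM in A549 with AMG900 and at 14, 8.94, 10.1 and 9.96 CPM with DMSO. It encodes a ubiquitin-like modifier, and in A549 its rise was called (log2 fold change 1.68, edgeR adjusted p = 1.59e-07). In H1792 it was already at 145, 91.9 and 108 CPM with DMSO and was at 132, 141 and 147 CPM with AMG900. DMSO replicate 1 lay among the treated libraries there, and the change was not called (0.28, edgeR adjusted p = 0.101; -0.060 with the GC correction, edgeR adjusted p = 0.593). By the interaction test the responses of the lines differed for *ISG15* (-1.49, edgeR adjusted p = 1.02e-05), *MX1* (-1.65, edgeR adjusted p = 0.000206), *CCL5* (-1.76, edgeR adjusted p = 2.01e-05) and *IFI6* (-0.62, edgeR adjusted p = 0.00844), each with the smaller rise in H1792.

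**Figure D5:**
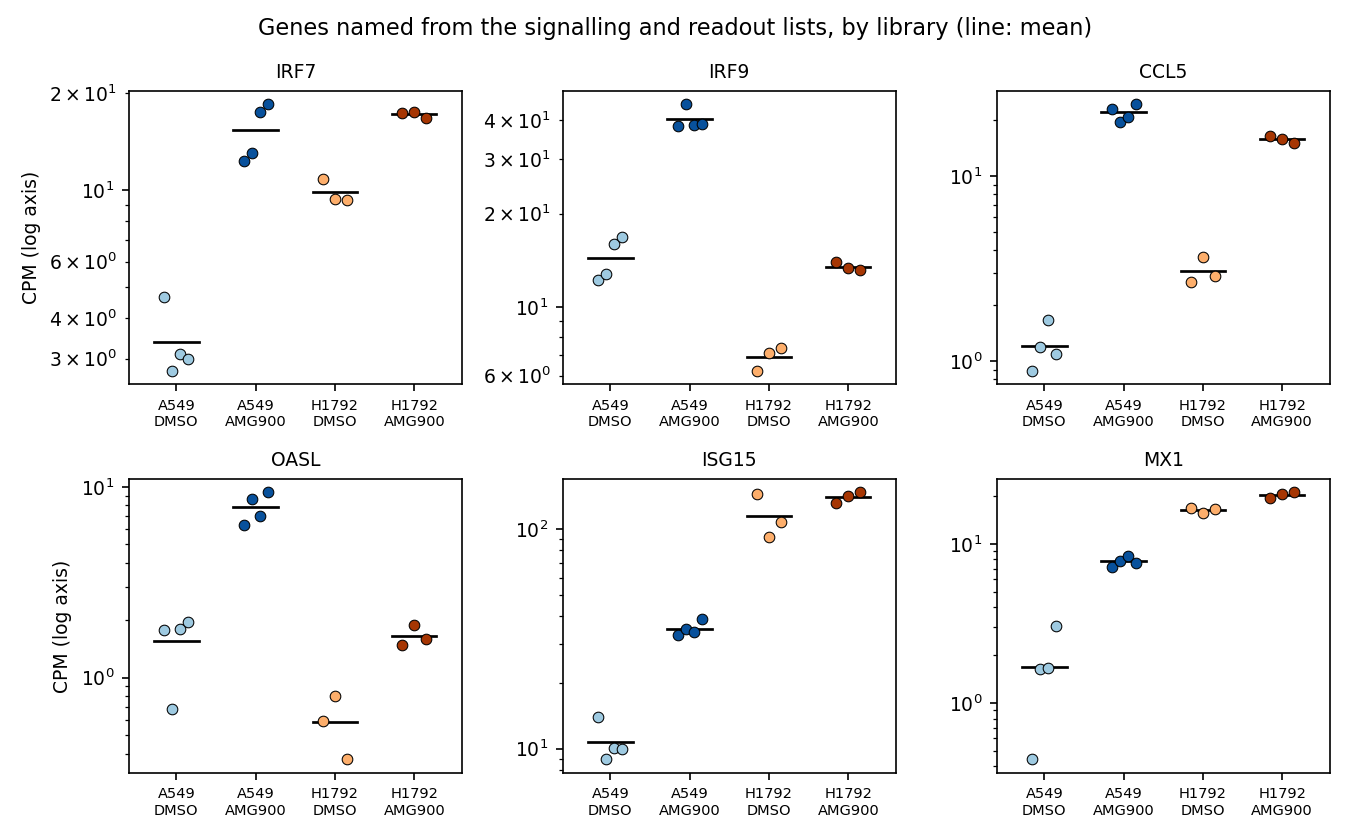
CPM (log axes) of *IRF7*, *IRF9*, *CCL5*, *OASL*, *ISG15* and *MX1* in every library, by line and agent, with a point for each library and a line for the mean. *CCL5* is between 0.886 and 1.66 CPM in A549 DMSO and between 19.6 and 24.6 CPM in A549 AMG900, and *ISG15* in H1792 DMSO overlaps H1792 AMG900.

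Receptor signalling genes had 4 of 10 tested higher and 1 lower in A549, and 1 of 11 higher and 3 lower in H1792. *IRF9*, the DNA-binding subunit of the interferon-activated complex, was at 38.4, 45.2, 38.5 and 39.0 CPM in A549 with AMG900 and at 12.2, 12.8, 15.9 and 16.8 CPM with DMSO. In H1792 it was at 14, 13.3 and 13.1 CPM with AMG900 and at 6.21, 7.11 and 7.35 CPM with DMSO. The groups were apart in both lines (log2 fold change 1.38 and 0.97, edgeR adjusted p = 4.06e-07 and 3.07e-05), also with the GC correction (1.22 and 0.79). *STAT2*, a partner of *IRF9*, rose in A549 (0.97, edgeR adjusted p = 1.25e-06) and fell in H1792 (-0.35, edgeR adjusted p = 0.00422). *JAK1*, a kinase of the receptor, fell in both (-0.38 and -0.69).

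Between the DMSO groups, 24 of the 80 listed genes tested were higher in H1792 and 31 lower, a share of 68.8% called against 62.2% of all genes. The RNA sensors were lower in 7 of 11 and higher in 2, with *OAS1* at -4.60 and *OAS3* at -3.68 on the log2 scale, as was *MAVS*, their neighbour in the pathway. Of the 10 readouts tested, 5 were higher in H1792, among them *ISG15* (3.42, edgeR adjusted p = 1.67e-08) and *MX1* (3.01, edgeR adjusted p = 1.53e-06), and 3 were lower, *OASL* (-1.43, edgeR adjusted p = 0.00797), *IFIT1* (-0.86, edgeR adjusted p = 0.00853) and *IFIT3* (-0.78, edgeR adjusted p = 0.00212). The lower calls of *OASL* and *IFIT1* were lost with the GC correction (edgeR adjusted p = 0.01 and 0.0182). *AIM2*, another DNA sensor, had 1244 reads in the H1792 DMSO libraries and 1 read in those of A549, a ratio of 382 after scaling with a counting interval of 68.4 to 15100. Across the interaction, 23 of the 80 listed genes tested had a lower and 3 a higher response in H1792, a share of 32.5% against 14.5% of all genes. The split of all called genes by direction is not reported here. The median over all genes tested was itself below 0 (-0.10, and -0.02 with DESeq2 size factors), so the lean to lower is not particular to the listed genes by these values.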

How the data were processed

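RNA sequencing counts of A549 and H1792 cells were used as deposited, as raw read counts per gene in 1 table per line. Per the labels, the authors aligned reads with STAR and counted them with HTSeq on hg19/GRCh37; versions, gene annotation and strand settings are not given in the sources used here. For H1792, 28 entries named as dates (0.101 to 0.117% of counts) were left out. Counts were tested with edgeR 4.0.16 (R 4.3.3; filterByExpr, TMM, quasi-likelihood test, Benjamini-Hochberg, FDR 0.01), where SE is |log2 fold change| divided by the square root of F, and with DESeq2 1.42.0 as an alternative; both were tested on simulated data. GC content and lengths came from GENCODE on GRCh37 (spline with 5 degrees of freedom in the GC correction), promoters from RefSeq by symbol (5 of 8 members matched). No replicate libraries agreed within sampling noise (chi-square per gene 3.31 to 48.3). The protocol names 3 replicates per treatment, but A549 has 4 labelled libraries per group.

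The members and lists were chosen with earlier results of these data known. Besides the members, named genes were up to 2 rises and 2 falls per list and comparison with the largest called change and a mean of at least 20 counts, genes sharing exons with members, and the 3 genes most like *MB21D1* and *TMEM173* among those with a mean of at least 100 counts. Beyond the rule, *IFI6*, *IFIT3*, *ISG20*, *CXCL10* and *RSAD2* are named because their counts are small or their values stood out. Alternatives were other scalings, DESeq2, filters on low counts, thresholds, the GC correction, a replicate block, 1 fit over all libraries and leaving out each library. Some genes of the lists are counted in them but are not reported here by name.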

Additional observations from a re-analysis of the deposited data

Results flagged for a closer look

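In 8 of 106 groups of 4 A549 libraries, 1 library stood apart by Dixon's test, which chance does in about 1 of 20. *TBK1* was at 11.3 CPM in A549 DMSO replicate 1, against 2.82 to 4.11 CPM in the others, and *G3BP1* (161 CPM against 198 to 204) and *ADAR* (218 CPM against 288 to 296) were low in the same library, the smallest. *RHBDF2* was at 105 CPM in A549 DMSO replicate 3 (others 90.4 to 92.8), *OASL* at 0.688 CPM in A549 DMSO replicate 2 (others 1.77 to 1.96) and *AIM2* at 0.072 CPM, from 1 read, in A549 DMSO replicate 3 (others 0). With AMG900, *IRF9* was at 45.2 CPM in A549 replicate 2 (others 38.4 to 39.0) and *AZI2* at 18.5 CPM in A549 replicate 1 (others 17.3 to 17.4).

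The response to AMG900 differed between the lines by the interaction test (edgeR, all 14 libraries) for 22 named genes, none of them a member. The log2 response was lower in H1792 than in A549 for *CCL5* (-1.76), *MX1* (-1.65), *ISG15* (-1.49), *IRF7* (-1.48), *STAT2* (-1.39), *IFIH1* (-1.12), *AZI2* (-0.99), *RHBDF2* (-0.94), *TRIM32* (-0.80), *IL10RB* (-0.72), *TBKBP1* (-0.66), *PLD3* (-0.63), *ABCC1* (-0.62), *NFKB1* (-0.60), *NLRX1* (-0.59), *TMED2* (-0.54), *DNASE2* (-0.48) and *JAK1* (-0.39). It was higher in H1792 for *RNASEH2A* (1.69), *BCL2L12* (1.07), *OAS3* (0.64) and *BANF1* (0.40).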

How the results depend on the processing

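The replicate numbers did not pair the libraries (correlations of deviations -0.06 to 0.04, 1 of 7 numbers closest to its own), and a replicate block left 1 member higher in each line. With the GC correction, member calls in A549 were 0 higher and 1 lower (also with the block), and in H1792 1 higher (*SAMHD1* in place of *TMEM173*) and 1 lower (*IRF3*), or 1 higher and 0 lower with the block added. One fit over all libraries gave 2 higher in A549 and 0 in H1792. At an FDR of 0.05 there were 2 higher and 1 lower in A549, 2 higher and 1 lower in H1792, and 1 higher for the interaction, which DESeq2 and the GC correction gave as well. Asking for a 2-fold change left 0 in each line, and at baseline 1 higher (*TMEM173*) and 1 lower (*MAVS*). Leaving out 1 library gave 1 to 3 higher and 0 to 1 lower in H1792 (3 and 1 without DMSO replicate 1: *TMEM173*, *TREX1*, *IRF3* and *TBK1*).

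Directions turned with the GC correction for *TMEM173* (-0.040), *TBK1* (0.073) and *SAMHD1* (0.17) in A549, and for *TREX1* (-0.15) and *IRF3* (-0.18) in H1792; with the block added, *TBK1* was 0.15 and *SAMHD1* 0.17 in A549, and *TREX1* -0.15 and *IRF3* -0.17 in H1792. The interaction of *TMEM173* was -0.052 with the block and -0.19 to 0.20 with 1 library left out, that of *MB21D1* -0.068 to 0.24, and *TBK1* in A549 ran from -0.74 to 0.015. None of these was called except *IRF3* in H1792 with the GC correction alone. The causes were not tested. *TMEM173* dropped out of the comparisons with A549 libraries where 10 counts in every library were asked for, and was still called in H1792. In A549 the depth limits *TMEM173*, *TBK1* and *MB21D1*, which rest on 1 to 97 reads per library.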
